A study of Mus musculus with 8 samples.

Results

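S9.6 signal over Hmga2 and over its target gene Igf2bp2 was compared between mouse muscle stem cells (MuSCs) with and without the histone methyltransferase Kmt5b. The members are the union peaks that the deposited peak table assigns to either gene by its symbol. They are 9 of 28265 peaks, 8 of them on Hmga2 and 1 on Igf2bp2, and all 9 passed the filter on low scores. RNA:DNA hybrids were pulled down with the antibody S9.6 and their DNA sequenced (DRIP-seq) in 3 Ctrl and 3 Kmt5b sKO libraries, and the 2 input libraries, 1 per genotype, have no column in the table used here. Ctrl cells carry the genotype Pax7CreERT/Suv4-20h1WT and Kmt5b sKO cells Pax7CreERT/Suv4-20h1KO, where Suv4-20h1 is the older name of Kmt5b. Both groups thus carry the tamoxifen-inducible Cre driven by Pax7, which acts in satellite cells. Tamoxifen was given to adult mice on a C57BL/6 background, and the cells were purified with magnetic beads and cultured under growth conditions before the DNA was taken. The study describes the replicates as biological, and the labels tie no library to an animal. The limma p-values use the spread between these libraries as a trend over all tested peaks, not the spread of a single peak.

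Hmga2 encodes a small non-histone chromatin protein that binds AT-rich DNA through AT hooks. It is abundant in embryonic and proliferating progenitor cells, is repressed by the microRNA let-7 through sites in its 3′ untranslated region (UTR), and acts as an oncogene when those sites are lost. Igf2bp2 encodes an RNA-binding protein that controls the translation and stability of its target mRNAs, and in satellite cells its gene is switched on by Hmga2 during myoblast proliferation. An R-loop forms when a transcript pairs again with its template strand and displaces the other strand, and G-rich runs in the displaced strand are known to favour it. The study lists Hmga2 among genes that gained R-loops on these same libraries, so its direction is not independent evidence here.

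Both genes lie on the minus strand of the mm10 (GRCm38) genome. Hmga2 (ENSMUSG00000056758) spans chr10:120361275-120476469 and 115.2 kb, with 5 exons in its main transcript and a long intron 3. Igf2bp2 (ENSMUSG00000033581) spans chr16:22059009-22163299 and 104.3 kb. The promoters are shown because an S9.6 peak covers the Hmga2 start site and none covers that of Igf2bp2. The sequences are the 250 bases before each transcription start site (TSS), chr10:120476470-120476719 for Hmga2 and chr16:22163300-22163549 for Igf2bp2, read 5′ to 3′ along the gene, with runs of 3 or more G in capitals.
Hmga2 promoter: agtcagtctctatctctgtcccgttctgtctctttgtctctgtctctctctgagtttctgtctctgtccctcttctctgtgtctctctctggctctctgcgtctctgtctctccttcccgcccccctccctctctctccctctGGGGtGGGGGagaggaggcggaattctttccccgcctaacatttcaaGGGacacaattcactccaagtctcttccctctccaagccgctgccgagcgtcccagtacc
Igf2bp2 promoter: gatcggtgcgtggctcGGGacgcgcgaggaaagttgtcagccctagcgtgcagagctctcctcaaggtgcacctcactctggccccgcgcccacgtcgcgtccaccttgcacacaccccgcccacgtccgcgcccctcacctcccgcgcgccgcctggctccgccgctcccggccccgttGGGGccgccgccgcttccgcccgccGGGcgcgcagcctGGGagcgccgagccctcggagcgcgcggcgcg
The Hmga2 promoter window opens with a long pyrimidine-rich stretch on the coding strand. C and T made up 70.8% of all bases of the window, a share reached by 0.41% of the same window in 27025 RefSeq promoters (GRCm38.p6), whose median was 50%. Its GC content was 56.4% and its GC skew, the excess of G over C divided by their sum, was −0.333 on the coding strand. The Igf2bp2 promoter was GC-rich, with 77.2% GC, a value reached by 2.42% of promoters. Its skew was −0.171. Hmga2 held 3 G runs on the coding strand and Igf2bp2 held 4, and 93.7% of all promoters held at least 1 on that strand, with a median of 4.

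The S9.6 peaks differed in extent between the genes. Union peaks covered 79.0% of Hmga2, more than in 90.3% of the 8003 genes tested on their summed score, whose median coverage was 21.4%. Igf2bp2 had 0.184% of its length covered, 192 bases at its 3′ end, and only 0.7% of genes had less. The Hmga2 start site lay in a peak, as did the start sites of 5.9% of the tested genes. Among the 31 gene symbols listed around the let-7, Hmga and Igf2bp pathway, 20 had a union peak. No share over all genes stands beside this count, so it is not read as high or low. The 11 without a peak include Zcchc11 and Zcchc6, older symbols of Tut4 and Tut7, which had peaks. The absence of a peak says that none passed the authors' peak calling there, and is no measure of expression.

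**Figure D1:**
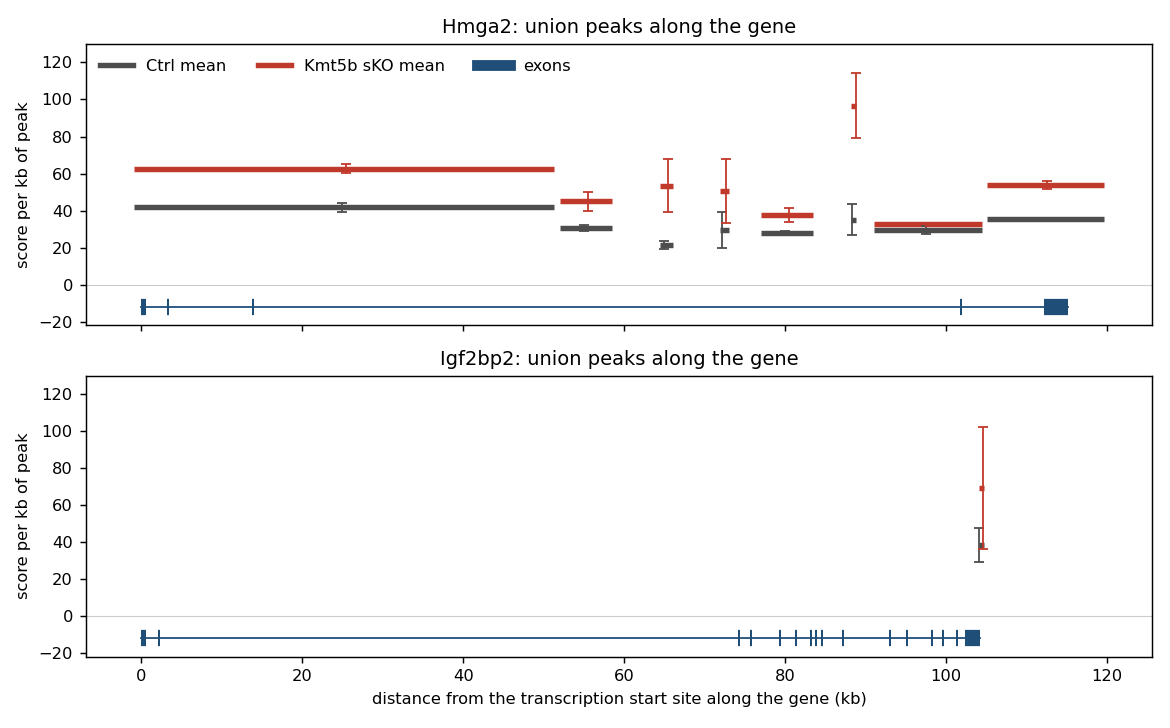
Mean S9.6 score per kb of union peak for Ctrl (grey) and Kmt5b sKO (red) against the distance from the TSS in kb, for Hmga2 (top) and Igf2bp2 (bottom); horizontal bars span each peak, vertical bars are the SD over 3 libraries, and blue boxes are exons of the main transcript. Peaks cover 79.0% of Hmga2, while the single Igf2bp2 peak straddles the end of the gene.

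The scores are signal sums over each peak that the authors scaled by Drosophila spike-in reads, so a longer peak has a higher score. Over all peaks they summed to 3893768 to 4729631 in Ctrl and to 4699599 to 4930261 in Kmt5b sKO, with the highest Ctrl total in replicate 2. A peak was called when limma, fitted on log2(score + 1) over 25815 autosomal peaks, gave a fold change over 1.5 with a Benjamini-Hochberg adjusted p under 0.1. This fold is 0.585 on the log2 scale. By this rule 32.9% of tested peaks were called higher in Kmt5b sKO and 0.883% lower, and the median log2 fold change was 0.35. Of 10 MuSC marker genes 6 had a union peak, Megf10 with 11, Pax7 with 9, Sdc4 with 2, and Myod1, Des and Itga7 with 1 each. Myf5, Vcam1, Cdh15 and Chrdl2 had none. Of 11 markers of other muscle-resident cells only the endothelial gene Pecam1 had any. These counts do not measure expression or cell identity, and no share over all genes stands beside them. Kmt5b itself had 1 peak with scores of 412, 658 and 420 in Ctrl and 440, 449 and 484 in Kmt5b sKO, a readout that does not show whether the gene is deleted.

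Hmga2 carried higher S9.6 scores in Kmt5b sKO, and Igf2bp2 was not called. Of the 8 Hmga2 peaks, 5 were called higher, against 32.9% of all tested peaks, and none lower. All 8 fitted changes were above 0, with a median of 0.59. In 7 of the 8 every Kmt5b sKO library lay above every Ctrl library, an arrangement seen in 41.5% of tested peaks. In a bulk culture, more cells with a hybrid at the gene and more hybrid in each cell cannot be told apart.

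**Figure D2:**
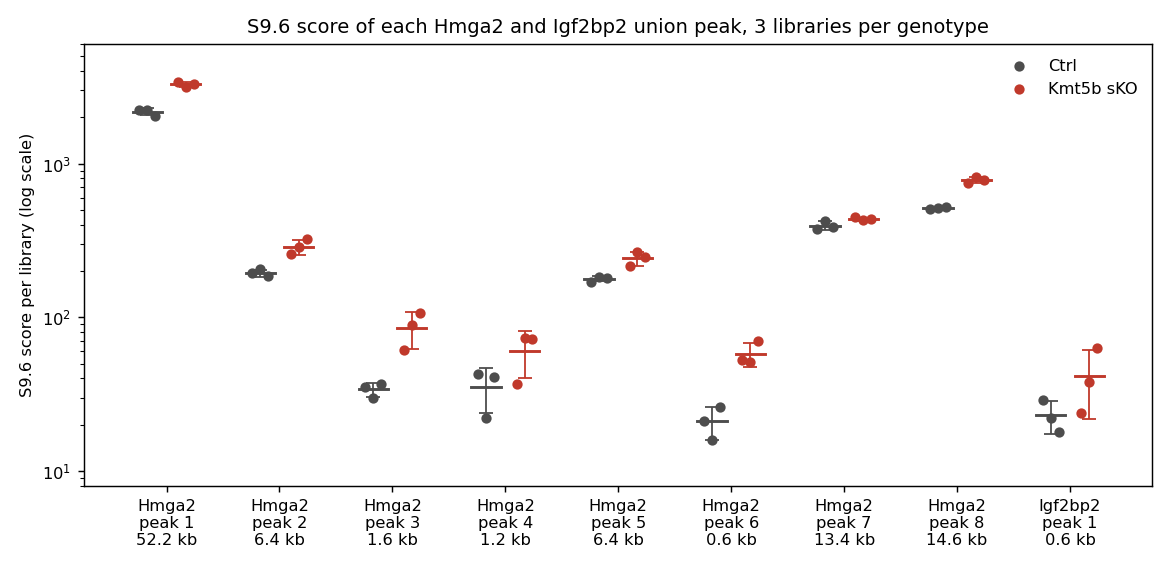
S9.6 score of each of the 9 union peaks in each library on a log scale, with peaks numbered from the TSS to the 3′ end and their lengths in kb; dots are libraries, horizontal lines are means and error bars are the SD of 3 libraries. Ctrl and Kmt5b sKO libraries are separate in 7 of 8 Hmga2 peaks and overlap in peak 4 and in the Igf2bp2 peak.

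The 5′ part of Hmga2 was 1 continuous domain. Peak 1, at chr10:120425200-120477399, was 52.2 kb long, started 931 bases before the TSS, and covered exons 1, 2 and 3 and much of intron 3 with the microRNA gene Mir763. It scored 2244, 2247 and 2040 in Ctrl and 3385, 3153 and 3276 in Kmt5b sKO. The lowest Kmt5b sKO library was well above the highest Ctrl library, and the spread within each genotype was small. Its score rose by 0.59 on the log2 scale (standard error, SE, 0.13; limma adjusted p = 1e-04). It was the 54th longest of all union peaks and the 57th highest by mean score among tested peaks. Per kb of peak it scored 41.7 ± 2.27 (SD, n = 3) in Ctrl, a density reached by 8.03% of tested peaks, and 62.7 ± 2.22 (SD, n = 3) in Kmt5b sKO.

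Peak 1 stood near the threshold, with a fold change of 1.503. Without Ctrl replicate 3 its log2 fold change was 0.54, and without Kmt5b sKO replicate 1 it was 0.56, both under the fold limit with adjusted p of 0.00085 and 0.0082. Few peaks of this size were called higher. Of the 58 tested peaks of at least 50 kb, a bound chosen after the values were seen, only this one was, and their median log2 fold change was −0.06. The next highest of them, on Gtf3c1, was at 0.48. With a bound of 30 kb, 4 of 314 peaks were called higher and 2 had a larger change, and with 20 kb these numbers were 12 of 828 and 10.

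Mir763 lies in intron 3 of Hmga2, inside peak 1. Its mature sequence is shown with that of let-7a, the repressor of Hmga2, with the seed (bases 2 to 8) in capitals.
mmu-miR-763: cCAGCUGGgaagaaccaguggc
mmu-let-7a-5p: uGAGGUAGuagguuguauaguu
The microRNAs share no seed. The other let-7 members and miR-98 in the RefSeq table all have the seed of let-7a.

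The middle of Hmga2, within intron 3, held 5 separate peaks. Peak 2, at chr10:120418000-120424399 and 6.4 kb long, scored 193, 205 and 185 in Ctrl and 257, 285 and 321 in Kmt5b sKO. Peak 5, at chr10:120393000-120399399 and also 6.4 kb long, scored 170, 182 and 181 in Ctrl and 215, 264 and 245 in Kmt5b sKO. In both peaks the libraries of the genotypes were separate. Their log2 fold changes of 0.56 ± 0.16 (SE, limma adjusted p = 0.0027) and 0.44 ± 0.16 (SE, limma adjusted p = 0.025) passed the adjusted p and not the fold limit, so neither was called. Peak 2, with a fold change of 1.473, was the nearest outside the limit. It was called without Ctrl replicate 2 (0.60, limma adjusted p = 0.00016) and without Kmt5b sKO replicate 1 (0.64, limma adjusted p = 0.0041).

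The largest relative changes were in 2 short peaks of intron 3. Peak 3, at chr10:120410400-120411999 and 1.6 kb long, scored 35, 30 and 37 in Ctrl and 61, 89 and 107 in Kmt5b sKO. Peak 6, at chr10:120387600-120388199 and 0.6 kb long, scored 21, 16 and 26 in Ctrl and 53, 51 and 70 in Kmt5b sKO. In both, the lowest Kmt5b sKO library exceeded the highest Ctrl library by a wide margin relative to their level. The log2 fold change was 1.28 (SE 0.26, limma adjusted p = 2.9e-05) in peak 3 and 1.43 (SE 0.36, limma adjusted p = 0.00064) in peak 6. These values lay above those of 95.1% and 97.6% of all tested peaks, while the median of tested peaks under 2 kb was 0.76. Peak 6 had a mean of 21.0 in Ctrl and passed the filter of 30 only through Kmt5b sKO, with 58.0. A peak this low in Ctrl is tested only if it is higher in Kmt5b sKO, so its rank is no independent evidence. Both were called in each of the 19 alternative settings that tested them, and a filter on a mean score over 100 left them out. Many of these settings cannot move a fold change, so this tally is no independent evidence either.

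The central 300 bases of both peaks are shown because they carried the largest changes on the gene. They are chr10:120387751-120388050 for peak 6 and chr10:120411051-120411350 for peak 3, on the coding strand, with runs of 3 or more G in capitals.
Peak 6: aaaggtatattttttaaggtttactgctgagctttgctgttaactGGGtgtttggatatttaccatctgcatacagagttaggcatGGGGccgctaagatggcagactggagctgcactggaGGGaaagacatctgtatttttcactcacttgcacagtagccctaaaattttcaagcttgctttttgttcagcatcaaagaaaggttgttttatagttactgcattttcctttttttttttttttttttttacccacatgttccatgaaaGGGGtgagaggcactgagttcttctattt
Peak 3: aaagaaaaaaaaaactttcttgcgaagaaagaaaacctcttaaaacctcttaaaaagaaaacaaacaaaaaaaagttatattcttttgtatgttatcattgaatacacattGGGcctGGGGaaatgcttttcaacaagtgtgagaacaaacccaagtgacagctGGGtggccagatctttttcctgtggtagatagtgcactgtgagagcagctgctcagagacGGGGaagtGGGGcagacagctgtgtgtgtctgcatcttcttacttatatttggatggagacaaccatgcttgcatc
Base composition was not shared between them. Over its whole length peak 6 had 35.2% GC and a skew of 0.137 on the coding strand, while peak 3 had 41.1% GC and a skew of −0.062. The medians of tested peaks under 2 kb were 40.8% GC and, for those assigned to a gene, a skew of 0.045. G runs numbered 13.3 per kb on the coding strand of peak 6 and 5.6 per kb in peak 3, against a median of 10. Neither peak overlapped an annotated exon of Hmga2 or another annotated gene.

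Peak 4, at chr10:120403400-120404599 and 1.2 kb long, was the Hmga2 peak whose genotypes overlapped. It scored 43, 22 and 41 in Ctrl and 37, 73 and 72 in Kmt5b sKO. Kmt5b sKO replicate 1 lay below 2 of the Ctrl libraries. The log2 fold change was 0.76 (SE 0.30, limma adjusted p = 0.032) and the peak was called. The call was lost without Ctrl replicate 2 (0.46, adjusted p = 0.22), without Kmt5b sKO replicate 2 (0.59, adjusted p = 0.17) and without Kmt5b sKO replicate 3 (0.60, adjusted p = 0.16).

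The 3′ part of Hmga2 held 2 long peaks that differed in their change. Peak 7, at chr10:120372000-120385399 and 13.4 kb long, covered exon 4, and scored 374, 426 and 386 in Ctrl and 447, 428 and 433 in Kmt5b sKO. Its Kmt5b sKO libraries lay just above the highest Ctrl library. The log2 fold change was 0.14 with a 95% interval of −0.14 to 0.43 (limma adjusted p = 0.46), and the peak was not called. It was the only Hmga2 peak below the median change of all tested peaks under the deposited scaling.

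Peak 8, at chr10:120356800-120371399 and 14.6 kb long, covered the last exon with the whole 3′ UTR and ran 4474 bases past the end of the gene. It scored 510, 515 and 525 in Ctrl and 750, 816 and 785 in Kmt5b sKO. The Ctrl libraries were within a few percent of each other and all lay far below the Kmt5b sKO libraries. The log2 fold change was 0.60 (SE 0.14, limma adjusted p = 0.00018) and the fold change of 1.515 was just inside the limit. Without Kmt5b sKO replicate 2 the log2 fold change was 0.57 and the peak was not called. Among the 981 tested peaks of 12 to 18 kb, 3.26% were called higher and the median log2 fold change was 0.02. Peaks 7 and 8 both overlap the antisense gene 1700006J14Rik, and without strand information hybrids of the genes cannot be told apart.

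The transcribed sequence under peak 8 holds the let-7 sites for which Hmga2 is known. The 3′ UTR of 2980 bases has 4 matches to the let-7 seed, written CTACCTC on the coding strand, and all lie in peak 8. They are shown from the stop codon to the transcript end, with the seed match in capitals.
chr10:120364224-120364246: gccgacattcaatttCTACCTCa
chr10:120362987-120363009: ccccactcctcaataCTACCTCt
chr10:120362549-120362571: ctgatttgcaaggaaCTACCTCc
chr10:120361691-120361713: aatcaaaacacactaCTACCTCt
These letters are not rare in peaks of this length. On either strand, 85.7% of the 991 union peaks of 12 to 18 kb hold the 7 letters, with a median of 2 matches, and peak 8 holds 6, a number reached by 3.3% of them. The Igf2bp2 3′ UTR of 1787 bases holds 1 match and none inside its peak. S9.6 signal does not report on binding by a microRNA.

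Change in S9.6 score varied with peak length across the genome, and the Hmga2 peaks were read against peaks of their own length. Of tested peaks under 2 kb, 59.5% were called higher and the median log2 fold change was 0.76. All 3 Hmga2 peaks of this class were called. Of tested peaks of at least 10 kb, 2.6% were called higher, which is 68 of 2616, and the median was 0.0. Of the 3 Hmga2 peaks of this class 2 were called higher, peaks 1 and 8, and 2.4% and 2.3% of peaks in the class had a larger log2 fold change. For peak 7 this share was 30.5%. Of tested peaks of 2 to 10 kb, 19% were called higher, and neither Hmga2 peak of this class was.

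**Figure D3:**
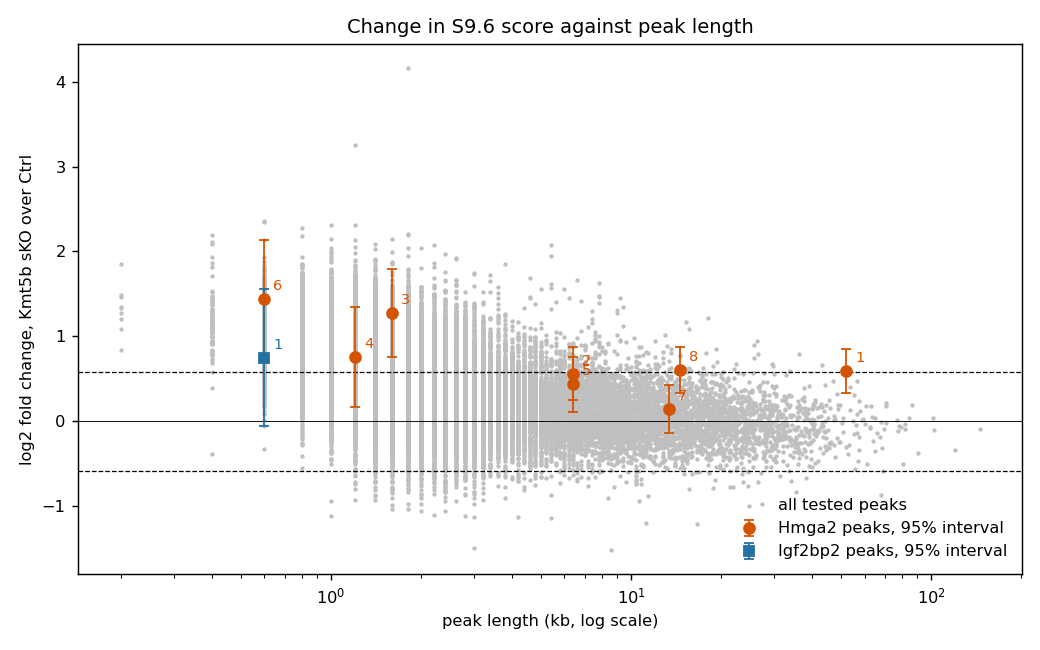
Log2 fold change of S9.6 score (Kmt5b sKO over Ctrl) against peak length in kb on a log axis for all 25815 tested peaks (grey), with the numbered Hmga2 peaks (orange) and the Igf2bp2 peak (blue) and their 95% intervals from limma; dashed lines mark the 1.5-fold limits. Peaks 1 and 8 of Hmga2 lie above most peaks of at least 10 kb, while the short Hmga2 peaks and the Igf2bp2 peak lie among many gained peaks of their length.

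Per kb of peak, the densest Hmga2 peak was peak 1 or peak 6. In Ctrl the mean density ranged from 21.2 per kb in peak 3 to 41.7 in peak 1, and peak 1 was the densest in 2 of 3 Ctrl libraries. In Ctrl replicate 3 it was peak 6, with 43.3 per kb against 39.1 in peak 1. In Kmt5b sKO the densest was peak 6, at 88.3, 85.0 and 117 per kb in the 3 libraries, against 64.8, 60.4 and 62.8 in peak 1. The lowest mean in Kmt5b sKO was 32.5 per kb in peak 7. In absolute score, however, the gain was in the long peaks. Of the 1673 points that the mean summed Hmga2 score gained, 81.4% came from peaks 1 and 8 and 6.8% from the 3 peaks under 2 kb.

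Summed over its peaks, Hmga2 scored 3590, 3643 and 3421 in Ctrl and 5205, 5159 and 5309 in Kmt5b sKO. The groups were separate, and the SD was 116 in Ctrl and 76.8 in Kmt5b sKO. In the limma fit of 8003 gene sums the log2 fold change was 0.56 (SE 0.12, adjusted p = 4.5e-05). It was 0.35 with the same total per library and 0.08 (adjusted p = 0.23) with each library centred on its median peak. The fold change of 1.47 did not reach the limit, while 29.3% of gene sums were called higher and the median log2 fold change was 0.32. Most of those genes have far less signal than Hmga2. Among the 94 genes with a mean sum at least as high as that of Hmga2, 6 were called higher and the same number had a larger log2 fold change, with a median of 0.05.

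The single Igf2bp2 peak lay at chr16:22058600-22059199, 104.4 kb from the start site, with its centre outside the gene. It overlapped only the last exon, and 408 of its 600 bases lay beyond the 3′ end. It scored 29, 22 and 18 in Ctrl and 24, 38 and 63 in Kmt5b sKO. The genotypes overlapped, since Kmt5b sKO replicate 1 lay below Ctrl replicate 1, and the Kmt5b sKO libraries spread more than 2-fold. The log2 fold change was 0.75 (SE 0.41, 95% interval −0.06 to 1.56, limma adjusted p = 0.14, unadjusted p = 0.0694), and the peak was not called, also not on the gene sum (adjusted p = 0.11). A change as large as that of Hmga2 lies within this interval. The mean score of 32.3 was just above the filter of 30, which the peak passed only through Kmt5b sKO (mean 41.7, against 23.0 in Ctrl). Without Kmt5b sKO replicate 1 the log2 fold change was 1.08 (adjusted p = 0.024) and the peak was called, and without Kmt5b sKO replicate 3 it was 0.41 (adjusted p = 0.55).

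The 300 bases of this peak just beyond the gene, chr16:22058709-22059008 on the minus strand, are shown because they lie in the only Igf2bp2 peak, with runs of 3 or more G in capitals.
Igf2bp2 3′ flank: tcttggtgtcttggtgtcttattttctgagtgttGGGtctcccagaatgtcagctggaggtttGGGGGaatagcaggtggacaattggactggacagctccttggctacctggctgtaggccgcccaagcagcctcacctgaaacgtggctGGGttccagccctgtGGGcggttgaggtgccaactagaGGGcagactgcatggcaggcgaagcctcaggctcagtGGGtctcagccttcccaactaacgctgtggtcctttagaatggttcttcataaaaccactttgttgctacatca
This stretch had 54.33% GC, a skew of 0.104 and 6 G runs. Over the whole peak GC was 44.8% and the skew 0.1, with 15 G runs per kb on the coding strand and 8.3 on the other.

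The score ratio of Hmga2 to Igf2bp2 within a library does not change with a single scale factor per library. Quantile normalization, which is not such a factor, gave log2 fold changes of 0.50 for the Hmga2 sum and −0.02 for the Igf2bp2 sum. On the log2 scale it was 6.95, 7.37 and 7.57 in Ctrl and 7.76, 7.08 and 6.40 in Kmt5b sKO. The groups overlapped, and the highest and the lowest value were both from Kmt5b sKO. The means differed by −0.22 (exact permutation test, two-sided, p = 0.70), and 3 libraries against 3 cannot give a p under 0.1. This test could therefore not show a difference in change between the genes, whatever its size. The denominator is the 1 low Igf2bp2 peak, and without Kmt5b sKO replicate 3 the difference turned to 0.12.

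**Figure D4:**
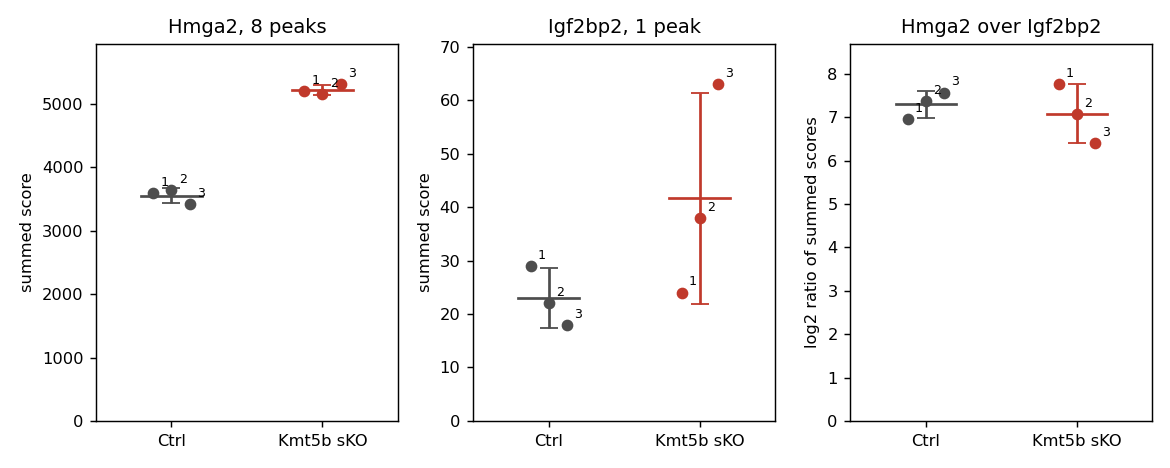
Summed S9.6 score of Hmga2 (left) and Igf2bp2 (middle) and the log2 ratio of both sums within a library (right), for 3 Ctrl and 3 Kmt5b sKO libraries numbered by replicate; horizontal lines are means and error bars the SD. The Hmga2 sums of the genotypes are separate at 3421 to 3643 and 5159 to 5309, while the Igf2bp2 sums and the ratio overlap.

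The scale of the libraries changed which Hmga2 peaks were called. With the deposited spike-in scale peaks 1, 3, 4, 6 and 8 were called. With the same total per library, with each library centred on its median peak and with quantile normalization only peaks 3 and 6 were. These 2 of 8 stand beside 21.6%, 9.61% and 7.94% of all tested peaks called higher under those scalings, and with the same total the share on Hmga2 is near that of all peaks. These scalings moved the median log2 fold change of all tested peaks from 0.35 to 0.15, −0.13 and −0.01, and the share of higher among all calls from 97.4% to 87.4%, 42.3% and 50.6%. Relative to the median under the deposited scale, the changes from peak 1 to peak 8 were 0.24, 0.21, 0.93, 0.41, 0.08, 1.08, −0.21 and 0.25. The deposited scale, equal totals and median centring differ by 1 factor per library, which shifts all peaks almost alike. Against their own median, the same 7 of 8 peaks were thus above under each of them, which is no separate evidence. All 8 were above with quantile normalization. There, peak 1 stood 0.56 and peak 8 0.55 above the median. The Igf2bp2 peak stood 0.40 above the median as deposited and 0.10 above it after quantile normalization.

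**Figure D5:**
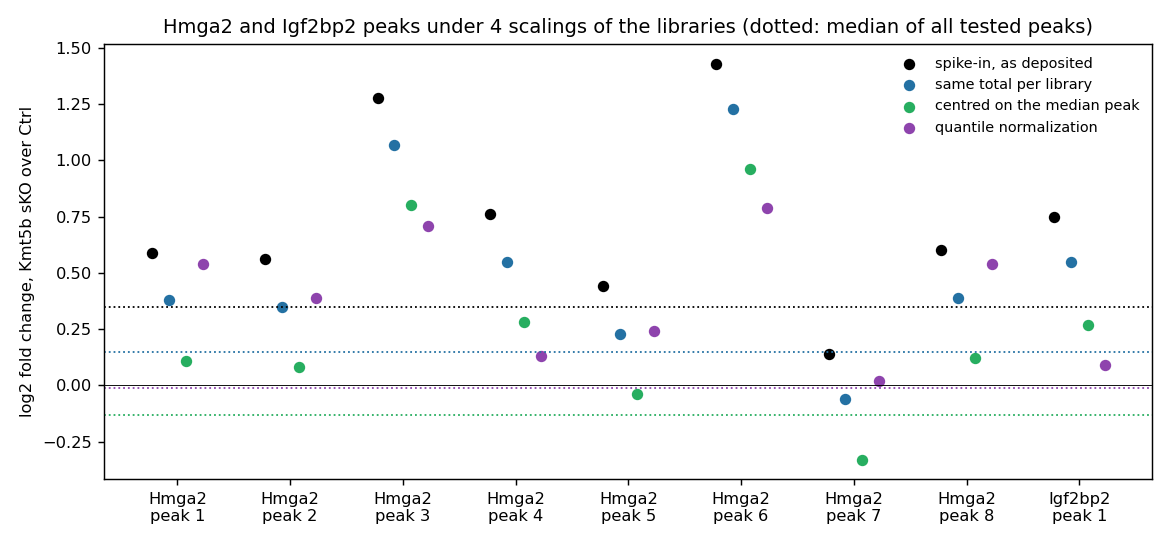
Log2 fold change (Kmt5b sKO over Ctrl) of the 9 peaks under 4 scalings of the libraries, shown by colour, with the median of all tested peaks under each scaling as a dotted line of the same colour. Peaks 3 and 6 stay highest under each scaling, and peak 7 falls below 0 under 2 of them.

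Peaks around Hmga2 moved the same way. Within 100 kb of the gene the table held 6 peaks without a gene, all short. Of these 4 passed the filter, and all 4 were called higher, beside the 59.5% of tested peaks under 2 kb. The tested peak downstream of the gene passed only through Kmt5b sKO (mean 44.7, against 19.7 in Ctrl). The nearest, at chr10:120478800-120480399 and 2.3 kb before the Hmga2 start site, scored 45, 32 and 46 in Ctrl and 104, 118 and 112 in Kmt5b sKO. It was called higher at 1.44 (SE 0.23, limma adjusted p = 7.1e-08), close to that of peak 6. Around Igf2bp2 6 of 7 peaks passed the filter and 2 were called higher, beside 32.9% of all tested peaks. These were one on Senp2 (0.72, adjusted p = 0.0055) and an intergenic one 74.1 kb before the start site (0.98, adjusted p = 0.00025). No peak inside either gene was assigned to another gene.

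Other genes of the pathway were followed through the list of 31 gene symbols. It covers the Hmga and Igf2bp families, insulin-like growth factor signalling, and the processing of let-7. Of its 72 tested peaks 7 were called higher, 9.72% beside 32.9% of all tested peaks. None was called lower, and 3 had a negative change with an unadjusted p under 0.05. The median log2 fold change was 0.18, beside 0.35 over all peaks. Of the 21 tested peaks under 2 kb on the list, 5 were called higher, beside 59.5% of all tested peaks of that length. With the same total per library 4 were called higher and 2 lower, beside 21.6% and 3.12% of all tested peaks. After median centring 0 were called higher and 14 lower, beside 9.61% and 13.1%, and after quantile normalization 0 and 9, beside 7.94% and 7.74%. The called peaks named next, 1 per gene, kept values of 0.06 to 0.67 above 0 under the other scalings, and none was called after median centring or quantile normalization.

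Among the paralogs, Hmga1 had 1 peak, which scored 76, 60 and 67 in Ctrl and 107, 134 and 125 in Kmt5b sKO. It was called higher at 0.84 on the log2 scale (SE 0.21, limma adjusted p = 0.00046). Unique alignment leaves out reads that fit its near-identical copy Hmga1b equally well. Igf2bp3 had 1 peak with a log2 fold change of 0.18, not called, and Igf2bp1 had none. Neither Lin28a nor Lin28b, which block the maturation of let-7, had a peak, nor did the growth factor gene Igf2.

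In the processing of let-7, peaks were called on 3 genes. Over the whole list 9.72% of tested peaks were called higher, beside 32.9% of all tested peaks. Tut7, which adds uridines to let-7 precursors, had 1 of 6 peaks called, 2.6 kb from its start, with 121, 125 and 119 in Ctrl and 185, 209 and 200 in Kmt5b sKO (log2 fold change 0.70, limma adjusted p = 0.00066). Dis3l2, the exonuclease that degrades uridylated precursors, had 2 of 8 tested peaks called, and the one of smaller adjusted p had 51, 40 and 42 in Ctrl and 77, 92 and 77 in Kmt5b sKO (0.88, adjusted p = 0.0023). Dgcr8, the partner of Drosha, had 1 of 3 called (0.70, adjusted p = 0.051). In these peaks the genotypes did not overlap. With the same total per library the Tut7 and Dgcr8 peaks were not called. Dicer1 had 5 peaks, Tut4 4, Xpo5 2, Khsrp 1 and Drosha 1, none of them called.

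In growth factor signalling, Igf1r, the receptor of the insulin-like growth factors, had 19 peaks, and none was called, beside 32.9% of all tested peaks. Its summed log2 fold change was −0.04 (limma adjusted p = 0.83). The insulin receptor gene Insr had 1 peak that was called with overlapping genotypes, at 27, 52 and 25 in Ctrl and 42, 57 and 57 in Kmt5b sKO (0.64, adjusted p = 0.098). Mtor, the kinase downstream of both receptors, had 1 of 3 peaks called, with 34, 39 and 40 in Ctrl and 81, 70 and 56 in Kmt5b sKO (0.84, adjusted p = 0.0083). Irs1, an adaptor of both, had 8 peaks, none of them called. With the same total per library the Insr peak, at 0.44, was not called and the Mtor peak, at 0.64, was.

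By the pattern over the 6 libraries, the genes most like Hmga2 among 2383 with at least 3 tested peaks were Prkdc, the unnamed coding gene ENSMUSG00000109926 and Sbno2, with Pearson r of 0.998, 0.998 and 0.997. Such values were common, as 11.8% of these genes had an r over 0.95. For Igf2bp2 they were Wdr70 (0.992), Fam185a (0.944) and Vwa8 (0.941), and the pattern matched there includes the high Kmt5b sKO replicate 3. These r describe log2 summed scores of libraries that share genotype and scale.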

How the data were processed

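DRIP-seq was measured in 3 Ctrl and 3 Kmt5b sKO MuSC libraries with S9.6. The authors trimmed reads with Trimmomatic 0.39, aligned them to mm10 (GRCm38) with STAR 2.7.3a, removed duplicates with Picard 2.21.7 and called peaks against input with Epic2 0.0.41. Blacklisted regions were left out, overlapping peaks of the samples were merged into union peaks, and signal was added up per union peak. The deposited score was scaled by the authors with Drosophila spike-in reads (BDGP6) and rounded. It is not a read count, so no count model was run, although the study used one, and the depth behind a score is unknown. A duplicated fragment, a repeat left out by unique alignment or an error in the spike-in would change a score. The table of the authors also gives each peak the gene of longest overlap and the distance of its centre to the TSS, a base-pair column of no sample. All 6 value columns matched a sample, and 0 were left unmatched.

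Autosomal peaks with a mean score over 30 were tested with limma 3.58.1 in R 4.3.3 (lmFit, eBayes with trend, two-sided, genotype only) on log2(score + 1), a scale that understates the change of low peaks. Gene sums were fitted in the same way over all genes. Errors are SD over libraries or SE of the fit, whose variance came from the trend over all peaks. Without this trend the limma adjusted p was 0.023 for Hmga2 peak 1, 0.02 for peak 8 and 0.085 for the Igf2bp2 peak. On simulated data with 200 of 25815 peaks changed 2-fold, the fit recovered 161 and made 15 false calls. The simulated spread followed the trend, so this cannot show whether the trend holds for single real peaks. Coordinates are as deposited, with starts at multiples of 200 read as counted from 0 for sequence and overlaps. Exons came from GENCODE vM21, promoters and microRNAs from RefSeq (GRCm38.p6), and both genes matched. Other steps ran in Python 3.11.15 with matplotlib 3.10.9, numpy 2.4.6, pandas 2.3.3 and scipy 1.17.1.

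The members, lists and tests were chosen with earlier results of these data known. All peaks of both genes are named, then for each listed gene with calls the called peak of smallest adjusted p, and the 3 genes most like each member. Peak classes of at least 20, 30 and 50 kb were added after seeing the data. Alternatives were other pseudocounts, level filters, scalings, variance models, thresholds and gene sums, a replicate block, the sex chromosomes kept, and leaving out each library. Input libraries were not analysed here.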

Additional observations from a re-analysis of the deposited data

How the results depend on the processing

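The number of Hmga2 peaks called higher, 5 of 8, fell to 2 at equal library totals, at median centring, at quantile normalization, at a 2-fold limit and when only means above 100 were tested (5 peaks). Of all tested peaks, 21.6%, 9.61%, 7.94%, 14.2% and 12.3% were called higher under these settings, in that order. Leaving out single libraries gave 3 to 5, the lowest without Kmt5b sKO replicate 2, and not always the same peaks. No alternative called an Hmga2 or Igf2bp2 peak lower. The Igf2bp2 peak was called higher (1 peak) without a trend in the variance and without Kmt5b sKO replicate 1 (range 0 to 1 over left-out libraries), dropped out where means above 100 were required, and was not called otherwise. Over the pathway list, peaks called higher changed from 7 of 72 to 1 of 30 when only means above 100 were tested. They were 4 at equal totals and 0 with median centring, with quantile normalization and with a fold change over 2. With no fold minimum 16 were called, beside 42.0% of all tested peaks. Over left-out libraries they ranged from 5 without Ctrl replicate 3 to 11 without Ctrl replicate 2, beside 27.6% and 34.9% of all tested peaks. Peaks of the list called lower changed from 0 to 2 with the same total, 14 with median centring, 9 with quantile normalization and 3 with no fold minimum. Of all tested peaks, 3.12%, 13.1%, 7.74% and 3.15% were called lower under these settings, in that order. The cause of these shifts was not tested.

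For single peaks, 173 of 176 alternative values were above 0. Many of these repeat the main value, since filters, variance models, the replicate block, the sex chromosomes and thresholds cannot move a fold change. Peak 5 turned to −0.04 with median centring, and peak 7 to −0.06 with the same total and to −0.33 with median centring. The Hmga2 sum reached the limits as a mean of log2 scores (0.72) and otherwise stayed under the fold limit. It was 0.53 to 0.58 over left-out libraries, 0.35 at equal totals, 0.50 with quantile normalization and 0.08 (adjusted p = 0.23) with median centring, where it lost its adjusted p. The Igf2bp2 sum was −0.02 with quantile normalization, and passed the limits without a trend and as a mean of log2 scores (0.75 in both) and without Kmt5b sKO replicate 1, with a range of 0.41 to 1.08. The ratio of the genes ranged from −0.56 to 0.12 over left-out libraries. The centre of the Igf2bp2 peak lies outside the gene, so the assignment by centre gave no value for it or for the ratio.

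With the replicate number as a replicate block, 5 Hmga2 peaks were called higher, 0 Igf2bp2 peaks, and 6 of the list, and the log2 fold changes of the sums were 0.56 and 0.75, so no call on either gene changed. Same-numbered libraries did not deviate together (correlations of −0.01, 0.01 and −0.03). The labels state no pairing beyond the number, and these correlations cannot exclude a shared preparation.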
